A study of Mus musculus with 6 samples.

Results

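The 10 genes described here encode the pocket proteins and the subunits and partners of the DREAM and MuvB complexes, and were taken from the table by an exact match of the gene symbol, giving 10 rows of 55487. They are the pocket protein genes Rb1, Rbl1 and Rbl2, the MuvB genes Lin9, Lin37, Lin52, Lin54 and Rbbp4, and the transcription factor genes Mybl2 and Foxm1. RNA was sequenced from mouse subventricular zone cells sorted for a yellow fluorescent reporter, with 3 knockout libraries, E2F1(-/-);E2F3(F/F), and 3 heterozygous libraries, E2F1(+/-);E2F3(F/+). Mice of both genotypes carried NestinCreERT2/R26;EYFP, a Cre recombinase active after tamoxifen in cells that use the Nestin promoter, on a C57BL/6;Sv/129;FVB/N background. They were 6 to 10 weeks old when tamoxifen began (200 mg/kg per day by gavage for 5 days), and tissue was collected 10 days after the last dose. The cells of several mice were pooled for each library, so the spread between libraries is a spread between pools. The heterozygous libraries are not wild type, since they carry 1 altered allele of each gene. E2F1 has no flox mark in the genotype, so its labelled loss is not limited to Nestin-expressing cells, whereas loss of E2F3 needs recombination by the Cre, and the effects of the 2 genes cannot be told apart.

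Pocket proteins bind E2F transcription factors and hold their target genes down until cyclin-dependent kinases phosphorylate them. In resting cells p130, encoded by Rbl2, or its relative p107, encoded by Rbl1, joins E2F4 or E2F5, a DP partner and the MuvB core to form DREAM, which represses cell cycle genes. When cells cycle, the same MuvB core leaves the pocket protein and binds B-Myb, encoded by Mybl2, and then FoxM1, and with them it activates genes of G2 and mitosis. The subventricular zone holds quiescent neural stem cells beside their dividing descendants, so both forms of the complex can be present in the tissue.

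Several member genes are themselves known targets of E2F or of MuvB, and the stretch just before the start of a gene is where such factors bind. The RefSeq promoter table (GRCm38.p6) held 7 of the 10 members, in 8 windows, of which the 250 bases before the start were searched on both strands. Rb1, Lin9 and Foxm1 had no entry and were not searched. The motifs were 4 E2F octamers (TTTCGCGC, TTTGGCGC, TTTCCCGC and TTTGCCGC), the shorter E2F core GGCGGGA, the cell cycle homology region TTTGAA that LIN54 can bind, and CCAAT. The reverse of TTTCCCGC shares bases with GGCGGGA, so both can match at 1 place. The 4 promoters below show a pocket protein gene with an E2F octamer (Rbl1, chr2:157204535-157204784, minus strand), a MuvB gene with an octamer and a core (Lin52, chr12:84451258-84451507, plus strand), the B-Myb gene with a core (Mybl2, chr2:163054385-163054634, plus strand) and a pocket protein gene with neither (Rbl2, chr8:91069807-91070056, plus strand). They are written 5′ to 3′ along the gene and end at the base before the RefSeq start, which for Lin52 and Mybl2 is not the start of the GENCODE gene given further on, with matched letters of any of the motifs, on either strand, in capitals.
Rbl1: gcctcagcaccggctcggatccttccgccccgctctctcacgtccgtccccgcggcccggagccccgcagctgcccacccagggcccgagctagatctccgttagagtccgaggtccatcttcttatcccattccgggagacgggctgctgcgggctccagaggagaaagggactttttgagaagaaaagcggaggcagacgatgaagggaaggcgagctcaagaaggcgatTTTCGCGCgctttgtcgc
Lin52: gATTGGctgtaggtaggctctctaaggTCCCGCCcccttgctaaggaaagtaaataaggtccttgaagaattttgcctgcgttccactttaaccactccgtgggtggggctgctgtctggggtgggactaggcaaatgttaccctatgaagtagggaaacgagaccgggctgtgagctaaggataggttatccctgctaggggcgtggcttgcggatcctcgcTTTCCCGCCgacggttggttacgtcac
Mybl2: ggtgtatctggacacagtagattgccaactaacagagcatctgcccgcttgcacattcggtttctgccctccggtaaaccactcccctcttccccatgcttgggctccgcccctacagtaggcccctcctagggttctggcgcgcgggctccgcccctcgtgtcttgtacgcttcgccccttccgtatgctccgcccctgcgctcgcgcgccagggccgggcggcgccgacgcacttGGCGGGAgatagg
Rbl2: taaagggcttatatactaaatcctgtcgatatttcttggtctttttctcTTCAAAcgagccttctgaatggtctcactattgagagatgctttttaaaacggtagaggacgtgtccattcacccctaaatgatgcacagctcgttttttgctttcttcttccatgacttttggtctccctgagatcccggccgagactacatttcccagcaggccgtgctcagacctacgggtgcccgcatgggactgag

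In Rbl1 the octamer TTTCGCGC lay 18 to 11 bases before the RefSeq start, from which all motif positions are counted. Lin52 had TTTCCCGC 27 to 20 bases before it, a core on the opposite strand at 25 to 19 bases, a second such core at 223 to 217 bases and a CCAAT on the opposite strand at 249 to 245 bases. Mybl2 had 1 match, the core at 13 to 7 bases, and Rbl2 had 1 match, TTTGAA on the opposite strand at 201 to 196 bases. Of the other members, Lin37 and Lin54 each held a core, a TTTGAA and at least 1 CCAAT, and Rbbp4 held a CCAAT. All Lin54 matches lay in its window inside the annotated gene (chr5:100498574-100498823). The Lin54 window just before the annotated gene start (chr5:100500640-100500889) held no match. The Lin37 and Lin52 windows also reach into their annotated genes. The core and the CCAAT matches of Lin37, and the octamer and the nearer core of Lin52, lie inside them. Over the 32851 windows of the table, an octamer was found in 1.86%, the core in 9.75%, TTTGAA in 15.99% and CCAAT in 33.8%. The matches describe letters in these windows and say nothing of binding.

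Values are normalized reads, the authors' read counts divided by 1 size factor per library, and the libraries of a genotype are listed in the order A, B, C. A gene was called changed where limma, fitted to log2(value + 1) over 18227 genes with a mean of at least 10, gave an adjusted p under 0.05. All 10 members passed that filter. Lin9 and Foxm1 were lower in knockout cells, and no member was called higher (1, Rbl2, had an unadjusted p under 0.05; edgeR called 0 and DESeq2 called 1). Against these 2 of 10, 8.59% of all genes tested were called lower and 7.23% higher. In 6 members (Rbl1, Lin9, Lin37, Lin54, Rbbp4 and Foxm1) the knockout libraries all lay below the heterozygous ones, against 20.2% of all genes, and in 1 (Rbl2) they all lay above, against 18.5%. The median log2 difference, knockout minus heterozygous, was -0.61 over the members and 0.05 over all genes tested. Of the 10 members 7 were negative, against 47.7% of all genes tested. In bulk libraries fewer cells of a type and less RNA per cell cannot be told apart, and this holds for each value that follows.

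**Figure D1:**
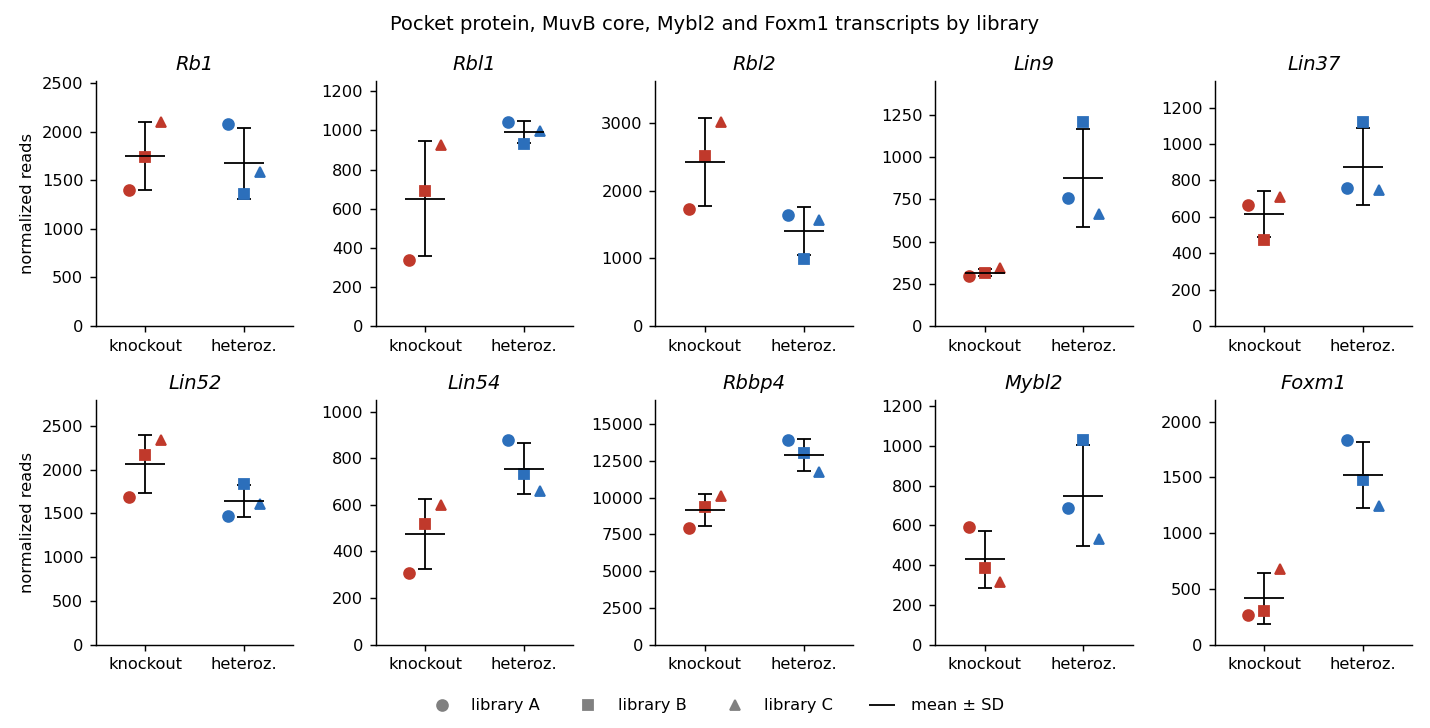
Normalized reads of the 10 members in each library, with the 3 knockout libraries left of the 3 heterozygous libraries; points are libraries A (circle), B (square) and C (triangle), and lines are the group mean ± SD. Foxm1 lies at 265 to 675 in knockout libraries and 1245 to 1833 in heterozygous libraries, while the Rb1 groups overlap.

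E2f1 itself, the targeted gene, averaged 458 ± 73.6 normalized reads in knockout and 1190 ± 182 in heterozygous libraries (SD, n = 3 each; limma adjusted p = 0.00559), and E2f3 averaged 266 ± 50.1 in knockout and 250 ± 44.0 in heterozygous libraries, with adjusted p = 0.845. Reads counted over the whole gene do not check recombination of a floxed part. Reads assigned to genes ranged from 19798675 to 25982361 per library. Neuroblast markers (Dcx, Tubb3, Dlx1 and others) were lower for 12 of 12 genes, summing to 13450 to 17131 in knockout and 73358 to 116255 in heterozygous libraries. Quiescent stem cell and astrocyte markers were higher for 3 of 10 genes, summing to 627462 to 900116 in knockout and 450551 to 630450 in heterozygous libraries. Of these markers 6 had an unadjusted p under 0.05, edgeR called 3, and the authors' deposited table gave 7 an adjusted p under 0.05. All 10 had positive log2 differences, while 47.7% of all genes tested had negative ones. Ependymal markers were higher for 6 of 10 genes (9 in edgeR) and ran from 63587 in knockout A and 39177 in knockout B to 14379 in knockout C, against 9897 to 12026 in heterozygous libraries. Knockout A also held the highest sums of endothelial and mural (36872), microglial (10315) and blood markers (21655), whose other libraries reached at most 19952, 6165 and 5377. Of these markers 1 of 10 endothelial and mural, 0 of 9 microglial and 0 of 5 blood genes were called by limma. The called gene, Pdgfrb, was not highest in knockout A. It had 3206, 3811 and 3848 normalized reads in the knockout libraries, against 1963, 973 and 2216 in heterozygous libraries. For the endothelial and mural genes, 3 had an unadjusted p under 0.05, edgeR called 1, and the authors' deposited table gave 6 an adjusted p under 0.05. No microglial or blood gene had an unadjusted p under 0.05 or was called by edgeR. Oligodendrocyte markers had 0 of 10 genes called by limma or edgeR, 2 with an unadjusted p under 0.05, and sums of 60365 to 75017 in knockout and 38353 to 57669 in heterozygous libraries. Striatal neuron markers had 2 genes higher and 2 lower of 9 tested, with sums of 3342 to 3709 in knockout and 2879 to 3760 in heterozygous libraries. No listed marker was at 0 in every library. The part of these cell types in the member values was not tested.

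None of the 3 pocket protein genes passed the test. Rb1 (ENSMUSG00000022105, chromosome 14, 73183673 to 73325822, minus strand), which encodes the retinoblastoma protein, had 1399, 1743 and 2100 normalized reads in the knockout libraries, against 2073, 1359 and 1588 in heterozygous A, B and C. The groups overlapped, and heterozygous B and knockout A were the lowest libraries. The log2 difference was 0.06 ± 0.23 (SE; 95% interval -0.45 to 0.58; limma adjusted p = 0.865). Its sign turned without knockout C (-0.078) and without heterozygous B (-0.074). Rb1 shares 8.11% of its exon bases with Rcbtb2 and 6.78% with Lpar6, both on the opposite strand. Whether counting used strand is not given in the sources used here, so reads of such neighbours may be among the member values.

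Rbl1 (ENSMUSG00000027641, chromosome 2, 157145893 to 157204534, minus strand) encodes p107, the pocket protein known to accumulate in cycling cells. It had 339, 692 and 924 normalized reads in the knockout libraries, against 1044, 932 and 996 in the heterozygous libraries. All knockout libraries were lower, knockout A by far the most and knockout C only just. The log2 difference was -0.72 ± 0.33 (95% interval -1.47 to 0.03) and missed the threshold (limma adjusted p = 0.165). It was -0.31 without knockout A (adjusted p = 0.398) and -1.03 without knockout C (adjusted p = 0.0319), and it passed the threshold only when knockout C was left out.

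Rbl2 (ENSMUSG00000031666, chromosome 8, 91070057 to 91123844, plus strand) encodes p130, the pocket protein typical of DREAM in resting cells. It had 1727, 2517 and 3015 normalized reads in the knockout libraries, against 1642, 996 and 1572 in the heterozygous libraries. All knockout libraries were higher, knockout A only slightly above heterozygous A. The mean was 1.72-fold that of the heterozygous libraries on the log2(value + 1) scale, a log2 difference of 0.78 ± 0.27 (95% interval 0.18 to 1.39), and missed the threshold in limma (adjusted p = 0.0755) and edgeR (adjusted p = 0.0647). In the authors' deposited table the log2 fold change was 0.79 with an adjusted p of 0.0340, and DESeq2 on the recovered reads gave 0.0375. Without knockout A the log2 difference was 1.01 (limma adjusted p = 0.0338), and the other libraries left out in turn gave 0.55 to 0.91 with adjusted p of 0.0954 to 0.230. The lowest value was without heterozygous B, and it was 0.61 without knockout C. Rbl2 shares 11.8% of its exon bases with the annotated gene Gm45464 and 9.17% with Aktip, both on the opposite strand. Aktip had 3414 to 5479 normalized reads per library, and its part in the Rbl2 values was not tested.

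Levels of different genes were compared per kb of annotated exon. The 3 pocket protein genes together had 518, 738 and 902 normalized reads per kb in the knockout libraries and 736, 513 and 638 in the heterozygous libraries, with overlap (exact permutation test, two-sided, p = 0.4). Rbl2 made up 44.1%, 45.1% and 44.2% of that sum in the knockout libraries, against 29.5%, 25.7% and 32.6% in the heterozygous libraries. Rbl1 made up 10.9%, 15.6% and 17.1% in knockout libraries, against 23.7%, 30.3% and 26.0% in heterozygous libraries. The groups were separate for both genes, with Rbl2 higher by 15.2 percentage points and Rbl1 at 14.6% ± 3.22 in knockout and 26.7% ± 3.36 in heterozygous libraries (SD, n = 3 each; exact permutation test).

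The Rb1 share overlapped, at 44.9%, 39.2% and 38.7% in knockout and 46.8%, 44.0% and 41.4% in heterozygous libraries (exact permutation test, p = 0.3). There were 4.04, 2.88 and 2.59 Rbl2 reads per kb for each Rbl1 read per kb in the knockout libraries, against 1.25, 0.847 and 1.25 in heterozygous libraries. That ratio was 2.84-fold higher in knockout cells, a log2 difference of 1.504, which stayed between 1.32 and 1.64 as each library was left out. The exact p was 0.1 for the ratio and for the Rbl1 and Rbl2 shares, the smallest that 3 against 3 libraries can give, and 0.16 after Benjamini-Hochberg adjustment over 8 such tests. Every knockout library was already above every heterozygous one for Rbl2 and below for Rbl1, so separation and exact p of the ratio were fixed. Knockout A, where Rbl1 and Rbl2 were both at their lowest among the knockout libraries, had the highest ratio.

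**Figure D2:**
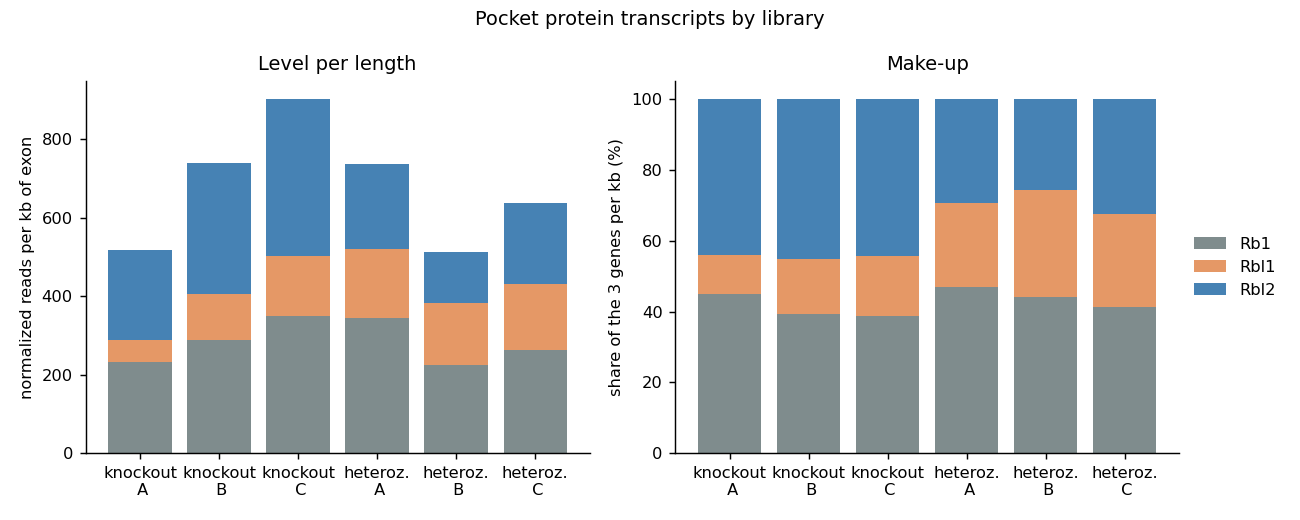
Bars show the share of Rb1, Rbl1 and Rbl2 in their summed normalized reads per kb of exon, in percent (right panel), and the levels per kb themselves (left panel), with the knockout libraries left of the heterozygous libraries in each. Rbl2 holds 44.1% to 45.1% in the knockout libraries and 25.7% to 32.6% in the heterozygous libraries.

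Of the MuvB core, Lin9 was lower and the other 4 genes did not pass the test. Lin9 (ENSMUSG00000058729, chromosome 1, 180641150 to 180690694, plus strand), a core subunit through which MuvB holds B-Myb, had 295, 314 and 342 normalized reads in the knockout libraries, against 759, 1210 and 664 in heterozygous libraries. The knockout libraries lay close together and far below the lowest heterozygous library. Lin9 was 2.67-fold lower in knockout cells, a log2 difference of -1.42 ± 0.27 (SE; limma adjusted p = 0.0107; edgeR adjusted p = 0.0111). Leaving out any 1 library kept it called, at log2 differences of -1.59 to -1.16.

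Lin54 (ENSMUSG00000035310, chromosome 5, 100441918 to 100500639, minus strand), the subunit that binds DNA, had 306, 517 and 600 normalized reads in the knockout libraries, against 878, 731 and 661 in heterozygous libraries. All knockout libraries were lower, with knockout C nearest to the heterozygous range. The log2 difference was -0.72 ± 0.28 (95% interval -1.35 to -0.083; limma adjusted p = 0.111). Without knockout C it was -0.91, with adjusted p = 0.0438, and without knockout A it was -0.43, with adjusted p = 0.261.

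Rbbp4 (ENSMUSG00000057236, chromosome 4, 129307100 to 129335370, minus strand), a histone-binding protein that also serves in other chromatin complexes, had 7942, 9366 and 10102 normalized reads in the knockout libraries. The heterozygous libraries had 13890, 12997 and 11768, all above the knockout libraries. The log2 difference was -0.50 ± 0.18 (95% interval -0.91 to -0.09; limma adjusted p = 0.0889). Rbbp4 shares 9.10% of its exon bases with Gm26722 and 8.94% with Sync, both on the opposite strand.

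Lin37 (ENSMUSG00000036845, chromosome 7, 30555441 to 30559838, minus strand), a subunit needed for repression by DREAM, had 664, 475 and 709 normalized reads in knockout libraries, against 760, 1122 and 747 in heterozygous libraries. The groups were separate by a narrow gap, and knockout B was the lowest library. The log2 difference was -0.50 ± 0.25 (95% interval -1.07 to 0.06; limma adjusted p = 0.194). It was -0.31 without heterozygous B and -0.33 without knockout B. Lin52 (ENSMUSG00000085793, chromosome 12, 84451422 to 84546145, plus strand), the subunit that DYRK1A phosphorylates when DREAM assembles, had 1688, 2167 and 2334 normalized reads in knockout libraries, against 1471, 1837 and 1606 in heterozygous libraries. These groups overlapped, and the log2 difference was 0.33 ± 0.20 (95% interval -0.11 to 0.76; limma adjusted p = 0.271).

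Lin9 was then set against the rest of the core. Its level per kb was 0.122, 0.112 and 0.102 of the geometric mean of Lin37, Lin52, Lin54 and Rbbp4 in the knockout libraries, against 0.210, 0.306 and 0.202 in heterozygous libraries. The groups were separate, with a log2 difference of -1.07 (exact permutation test, p = 0.1, adjusted 0.16). The fractions depend on the length used, since Lin9 has 7244 bases over all exons and 3160 in its longest transcript. Their log2 difference between the genotypes does not depend on it. This ratio was chosen after the values were seen.

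Mybl2 (ENSMUSG00000017861, chromosome 2, 163054687 to 163084688, plus strand), which encodes B-Myb, had 591, 384 and 313 normalized reads in the knockout libraries, against 688, 1029 and 533 in heterozygous libraries. The groups overlapped, because knockout A lay above heterozygous C. The log2 difference was -0.80 ± 0.32 (95% interval -1.52 to -0.09; limma adjusted p = 0.113). The authors' deposited table gave -0.81 with an adjusted p of 0.0513. Rbl1 and Mybl2 lie on the chromosome of E2f1, 2.58 and 8.48 Mb from it, and an effect of the E2f1 allele on linked genes was not tested.

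Foxm1 (ENSMUSG00000001517, chromosome 6, 128362967 to 128376146, plus strand), which encodes the factor that joins MuvB in G2, was the member furthest below its heterozygous level. It had 265, 302 and 675 normalized reads in the knockout libraries, against 1833, 1479 and 1245 in heterozygous libraries. The groups were far apart, and knockout C lay above the other knockout libraries. Foxm1 was 3.96-fold lower in knockout cells, a log2 difference of -1.98 ± 0.35 (limma adjusted p = 0.00797; edgeR adjusted p = 0.0125). It shares 1.69% of its exon bases with Gm44596 and 2.503% with Tex52. Without heterozygous B the log2 difference was -1.995 and the adjusted p 0.0565, and the other libraries left out in turn gave -2.40 to -1.73 with adjusted p of at most 0.046.

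**Figure D3:**
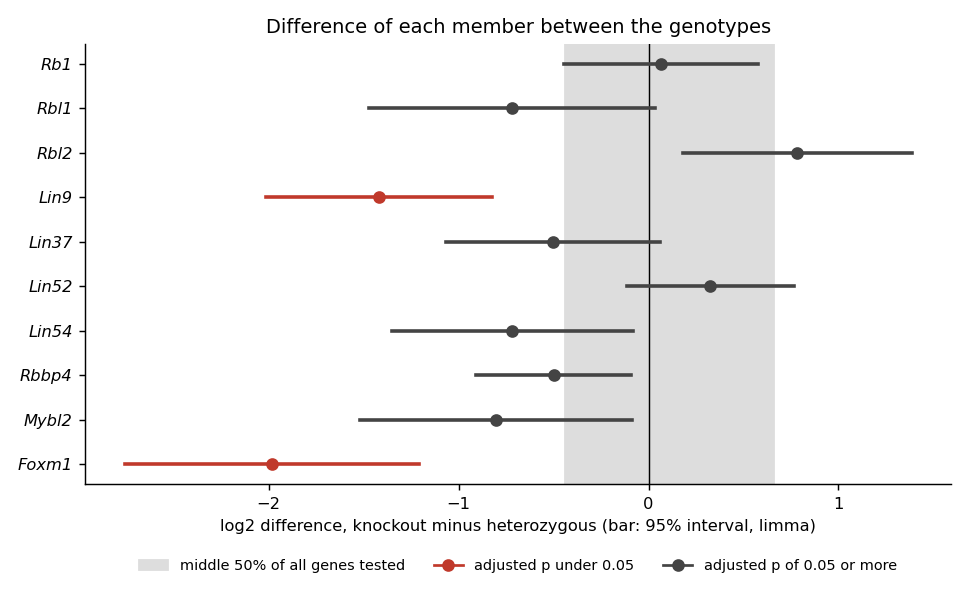
Log2 difference of each member, knockout minus heterozygous, with its 95% interval from limma; the shaded band is the middle 50% of all genes tested. Lin9 (-1.42) and Foxm1 (-1.98) are called lower, and Rbl2 (0.78) lies on the other side of 0.

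Ratios between members, added after their values were seen, set these genes against each other within a library. Every knockout library was already above every heterozygous one for Rbl2 and below for Foxm1, so separation and exact p of their ratio were fixed. Per kb, Rbl2 stood at 4.95, 6.35 and 3.40 times Foxm1 in knockout A, B and C, against 0.682, 0.513 and 0.961 times in heterozygous libraries, a 6.83-fold higher ratio with separate groups (exact permutation test, p = 0.1, adjusted 0.16). Foxm1 stood at 0.361, 0.633 and 1.74 times Mybl2 in knockout libraries, against 2.14, 1.16 and 1.88 times in heterozygous libraries, with overlap (exact permutation test, p = 0.2, adjusted 0.267).

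Ordered by level per kb of exon, the knockout libraries had Rbbp4 first at 1045 ± 126 normalized reads per kb (SD, n = 3), then Lin52 at 663 ± 108, Lin37 at 444 ± 89.7, Rbl2 at 320 ± 86.0 and Rb1 at 290 ± 58.3. Rbl1 (109 ± 49.1), Mybl2 (92.7 ± 31.2), Lin54 (81.5 ± 26.1), Foxm1 (72.0 ± 39.4) and Lin9 (43.8 ± 3.26) formed the lower end. Neighbours overlapped in their libraries except Rbbp4 and Lin52, Lin52 and Lin37, and Rb1 and Rbl1. In heterozygous libraries Rbbp4 (1474 ± 122), Lin37 (631 ± 153), Lin52 (527 ± 59.6) and Rb1 (278 ± 60.6) led, Foxm1 came next at 264 ± 51.4, and Rbl2 (186 ± 47.0), Rbl1 (165 ± 9.40), Mybl2 (162 ± 54.8), Lin54 (130 ± 19.0) and Lin9 (121 ± 40.3) followed. There only Rbbp4 and Lin37, and Lin52 and Rb1, were separate neighbours. Foxm1 was ninth in the knockout order by this length. The order depends on the length used, most of all for Lin9, with 7244 bases over all exons and 3160 in its longest transcript. With the longest transcript Lin9 is last in neither genotype. Its mean then lies above Mybl2, Rbl1 and Lin54 in heterozygous libraries and above Foxm1 in knockout libraries. Rbl2 then also lies above Foxm1 in heterozygous C.

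Among the knockout libraries 8 of 10 members had their lowest value in A and their highest in C, an order held by 30.6% of all genes tested. The exceptions were Mybl2, which had its top value in knockout A and its lowest in C, and Lin37, lowest in knockout B. The ependymal marker sum had the opposite order, with A above B and B above C, and whether it bears on the member values was not tested.

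The genes whose levels followed the called members most closely were ranked by Pearson r of log2(value + 1) over the 6 libraries, among 14125 genes. For Lin9 they were Polr3k (r = 0.9993), Trim13 (0.9985) and Mtfr2 (0.9979). For Foxm1 they were Syt14 (0.9996), Disp2 (0.9983) and Mapk8ip2 (0.9979). The 6 points share genotype and library, and with so many genes ranked over 6 points the values are a description only.

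The DNA-binding partners of DREAM differed among themselves. Tfdp1, which encodes the dimer partner DP1, had 1535, 1981 and 2339 normalized reads in the knockout libraries, against 4184, 5336 and 3412 in heterozygous libraries. The groups were well apart, and Tfdp1 was the 1 gene of 4 called, with a log2 difference of -1.14 ± 0.23 (limma adjusted p = 0.0141). It lost the call without knockout B, heterozygous A or heterozygous B, when 0 of the 4 were called. E2f4 and E2f5, the E2F genes of DREAM, had log2 differences of -0.28 and 0.15 and Tfdp2 of -0.17, with limma adjusted p of 0.374 to 0.593. Of the relatives of the members none of 4 was called by limma or edgeR or had an unadjusted p under 0.05, and Myb had the smallest p (log2 difference 0.77, limma adjusted p = 0.210).

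Cyclins and their kinases phosphorylate pocket proteins and release E2F from them. Of the 9 genes on that list, 7 were lower and 1 was higher, with a median log2 difference of -1.48. Among the lower genes, the cyclin genes had log2 differences of -2.496 (Ccna2), -2.10 (Ccne2), -2.01 (Ccne1) and -1.70 (Ccnd2), and the kinases Cdk2, Cdk4 and Cdk6 were at -1.48, -1.30 and -0.997 (limma adjusted p of 0.00141 to 0.0178). Ccnd1 had 503, 453 and 711 normalized reads in knockout libraries, against 240, 193 and 303 in heterozygous libraries. It rose in knockout cells, with separate groups and a log2 difference of 1.17 ± 0.28 (limma adjusted p = 0.0249), a call that was lost without knockout B, heterozygous A or heterozygous B. Ccnd3 was at 0.54 and not called (adjusted p = 0.0955).

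None of the 8 genes for DYRK1 and Hippo pathway kinases and their adaptors that promote DREAM assembly was called by limma or edgeR, with a median of -0.02, and 1 had an unadjusted p under 0.05. Dyrk1a, whose product phosphorylates LIN52, had a log2 difference of -0.36 (limma adjusted p = 0.230). Lats2 had the smallest p, with a log2 difference of 0.87 (limma adjusted p = 0.0537). In the authors' deposited table Lats2 had a log2 fold change of 0.84 with an adjusted p of 0.0193. Of 7 genes for phosphatases that return pocket proteins to the active form, Ppp1cc alone was called lower, by a log2 difference of -0.87 (limma adjusted p = 0.0210). Differences were negative for 6 of the 7, against 47.7% of all genes tested. None was called without knockout B, heterozygous A or heterozygous B.

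Among 15 genes for corepressors that pocket proteins recruit, 7 were lower and none higher, with a median of -0.50. The lower genes were Ezh2 (-1.72) and Dnmt1 (-1.25), which write repressive histone and DNA methylation, Hdac2 (-1.36), Suv39h1 (-0.81), Suv39h2 (-1.15), Smarca4 (-0.89) and Rbbp8 (-1.70). The count was 3 without knockout B, heterozygous A or heterozygous B. Of 8 genes for turnover of the members with a row in the table, 5 were lower: Ccnf (-3.11), Cdc20 (-2.72), Skp2 (-1.58), Cks1b (-1.33) and Fzr1 (-0.85), and 3 of 8 without heterozygous A or heterozygous B. Of 8 genes for regulators of FoxM1, Plk1 (-2.82), Ccnb1 (-2.74), Ccnb2 (-2.63) and Cdk1 (-2.22) were lower and the other 4 were not called. The lists share genes. Plk1, Ccnb1, Ccnb2, Cdk1, Cdc20 and Ccna2 are counted again among the G2 and mitosis targets below, and Ccne2 among the G1/S targets. Beside the counts of all these lists, 8.59% of all genes tested were called lower and 7.23% higher.

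**Figure D4:**
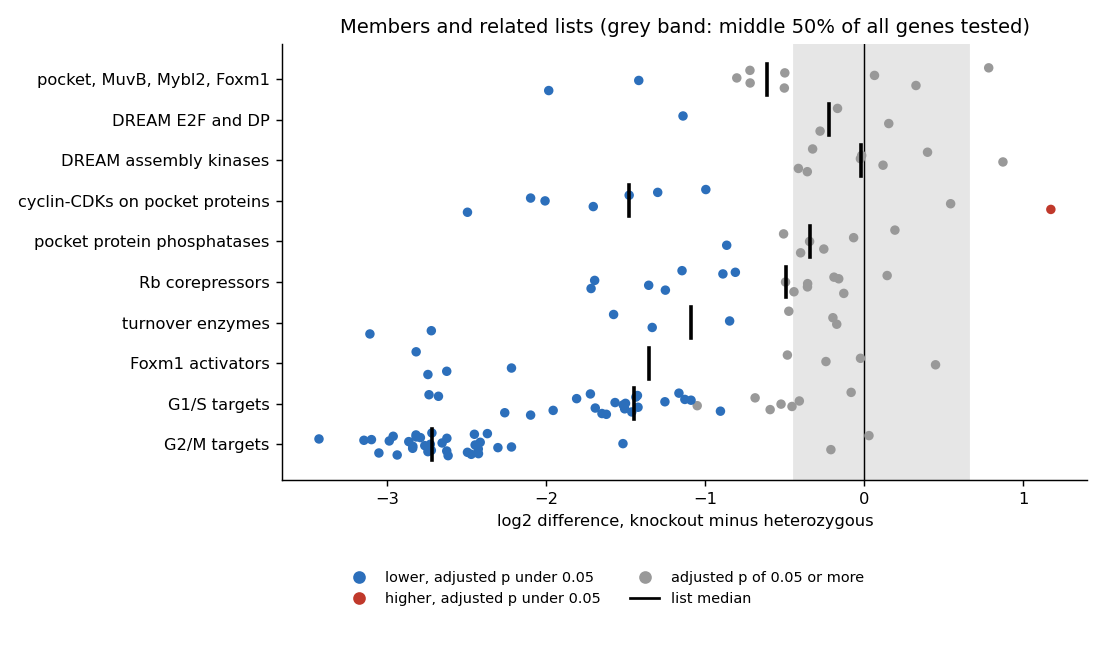
Log2 difference, knockout minus heterozygous, of each gene in the member list and in the lists of related genes; points are genes (blue lower, red higher, grey not called), lines are list medians and the grey band is the middle 50% of all genes tested. The G2 and mitosis targets have a median of -2.72 and the members of -0.61.

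Targets of the complex were lower in knockout cells in both phases. Of 30 G1/S genes repressed by DREAM in resting cells, 23 were lower and none higher, with a median of -1.45. All 30 were negative, against 47.7% of all genes tested. Tk1, thymidine kinase, had 128, 111 and 137 normalized reads in knockout libraries, against 863, 1162 and 590 in heterozygous libraries. Tk1 was the most negative at -2.74 (limma adjusted p = 0.00117) and Rrm2, a subunit of ribonucleotide reductase, was at -2.68 (adjusted p = 0.00156). Genes that were not called included Mcm2, Mcm4 and Ung. The count of 23 fell to 6 without knockout B, 7 without heterozygous A and 5 without heterozygous B.

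Of 35 G2 and mitosis genes activated by MuvB with B-Myb and FoxM1, 33 were lower and none higher, with a median of -2.72. Mki67, a nuclear protein of dividing cells, had 397, 203 and 395 normalized reads in knockout libraries, against 3693, 3763 and 2893 in heterozygous libraries. It was 10.8-fold lower, with a log2 difference of -3.43 ± 0.28 (limma adjusted p = 0.000886), and Cenpa and Ube2c were at -2.84 and -2.72. Cdc25b and Pttg1 were the 2 not called. From 30 to 33 of the 35 were called when each library was left out. The neuroblast marker sums given above were lower in the same 3 libraries as both target lists, Lin9 and Foxm1, and their part in these values was not tested.

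Relative to the heterozygous mean, the G2/M list averaged -2.92, -2.70 and -1.97 on the log2 scale in knockout A, B and C, and the G1/S list -1.84, -1.43 and -0.87. Foxm1 followed the same order of libraries, at -2.49, -2.31 and -1.15, whereas Mybl2 ran the other way, at -0.29, -0.91 and -1.21. Lin9 stayed within -1.52 to -1.31. Rbl2 was at 0.33, 0.88 and 1.14 and Rbl1 at -1.54, -0.52 and -0.10, so both were nearest the top in the knockout library with the most target RNA.

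**Figure D5:**
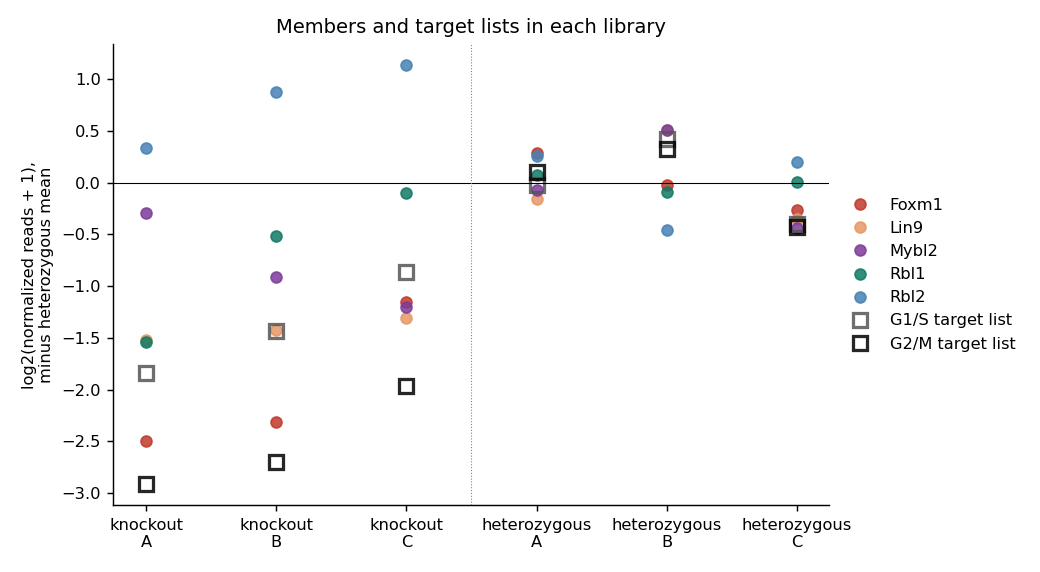
Log2(normalized reads + 1) of 5 members (circles) and its mean over 2 target lists (open squares) in each library, minus the heterozygous mean, with the knockout libraries left of the dotted line. In knockout A the G2/M list is at -2.92 and Foxm1 at -2.49, and Rbl2 is above 0 in all 3 knockout libraries.

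The promoters of the target lists were searched with the same motifs. Among all 27025 genes with a promoter in the table, an octamer was found for 2.16%, the core for 11.03%, TTTGAA for 18.3% and CCAAT for 37.5%. For the G1/S targets, 25 of 30 genes had a promoter, and 9 held an octamer (36%), 8 the core (32%), 3 TTTGAA (12%) and 17 CCAAT (68%). For the G2/M targets, 30 of 35 had one, and 1 held an octamer (3.33%), 6 the core (20%), 11 TTTGAA (36.7%) and 26 CCAAT (86.7%). Of the 7 members with a promoter, 2 held an octamer, 4 the core, 3 TTTGAA and 4 CCAAT. Lin54 was counted by its window inside the annotated gene. The called members, Lin9 and Foxm1, had no promoter in the table.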

How the data were processed

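Alignment, counting and comparison used HISAT2, featureCounts from Subread and DESeq2 on GRCm38, per the submitters' processing notes, which give no versions. RNA was converted with SMART-Seq v4 and Nextera XT kits, per the labels' protocols. The deposited values are a normalized signal, the authors' read counts divided by 1 size factor per library. Log2 fold changes, the Wald statistic and weight (each a score), and p-values and adjusted p-values are the authors', per the file headers. Within a library all values above 0 were whole multiples of a common step (tolerance 0.001 reads), which gave back the reads and the depth. The step was within 1% of 1 in heterozygous A and C.

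The main test was limma 3.58.1 (R 4.3.3, mean-variance trend, two-sided) on log2(value + 1), for rows with a mean of at least 10, with a genotype term alone and a Benjamini-Hochberg threshold of 0.05 over all genes tested. This scale understates changes of low genes. edgeR 4.0.16 and DESeq2 1.42.0 on the recovered reads were alternatives, beside other pseudocounts, filters, scaling, a block for the library letter, and leaving out single libraries. The limma and edgeR fits were tested on simulated data with known changes. Single ratios and shares used exact permutation tests over libraries. Exon lengths and positions came from GENCODE M21 on GRCm38, and promoters from RefSeq GRCm38.p6. Figures used matplotlib 3.10.9.

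Members and lists were chosen with earlier results of these data known. Genes named were the 10 members, called genes of the related lists (examples only from the 2 target lists), the gene with the smallest p in a list with none called, and the 3 genes most like each called member. Other genes named, such as Ccnd3, were added after their values were seen. The 6 pairs of libraries within a genotype all differed beyond sampling noise, so each counted as 1 sample, and p-values measure the spread between pools of mice.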

Additional observations from a re-analysis of the deposited data

How the results depend on the processing

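Over 15 alternatives for each of 10 members, 142 of 150 values kept their direction and side of the threshold. The count of members called lower, 2 in the main test, was 1 at an adjusted p of 0.01 and ranged from 1 (without heterozygous B) to 4 (without knockout C) as each library was left out. The count called higher was 0 in limma and edgeR, 1 in DESeq2 (Rbl2) and 0 to 1 with each library left out. Rb1 ranged from -0.078 (without knockout C) to 0.23 (without heterozygous A) and was also negative without heterozygous B (-0.074). The 23 G1/S targets called lower became 5 at an adjusted p of 0.01 and 5 to 26 with each library left out. The cause of these changes was not tested, beyond the fewer libraries or stricter threshold. Over all genes, 2883 were called, and 4458 with DESeq2, 618 at an adjusted p of 0.01, and 635 to 4019 with each library left out. The split was 1565 lower and 1318 higher in the main test, and 1406 lower and 1572 higher with edgeR's upper-quartile scaling, which moved the median log2 difference to 0.13. The signs of the members were the same under that scaling. Whether letters A to C pair the libraries is not stated in the sources used here. Correlations of same-letter deviations were -0.07, 0.02 and -0.10, from too few libraries to decide it. A fit with the letter as a replicate block called 2310 genes and the same 2 members lower. The member values rest on 265 or more normalized reads in each library, and with 3 libraries per genotype the exact tests could not go below p = 0.1.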

Other observations

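Both genes here were chosen after their values were seen. Pttg1, which encodes securin and stands among the G2 and mitosis targets, had 3420, 1863 and 1678 normalized reads in the knockout libraries, against 1788, 2900 and 1938 in heterozygous libraries. The groups overlapped, with a log2 difference of 0.03 ± 0.30 (SE, limma adjusted p = 0.954). Myb, the relative of Mybl2, had 1343, 1175 and 419 normalized reads in knockout libraries, against 570, 565 and 409 in heterozygous libraries. Pttg1 and Myb, like Mybl2, were highest among the knockout libraries in knockout A, which also held the highest ependymal, endothelial, microglial and blood marker sums. Their part in these values was not tested.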
